A study of Mus musculus with 8 samples.

Results

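The genes compared here give a neuron its fast transmitter identity: Gad1, Gad2 and Slc32a1 for GABA, and Slc17a6, Slc17a7 and Slc17a8 for glutamate. They were chosen by gene symbol, and all 6 were found in all 8 libraries, out of 22725 symbols shared by the tables. RNA was sequenced from pooled hypothalamic tissue of Foxd1-mutant and wild-type mouse embryos, with 1 library per genotype at E12.0, 1 per genotype at E12.5 and 2 per genotype at E17.5. Foxd1 encodes a forkhead transcription factor of the early ventral forebrain, and the design asks how its loss alters the hypothalamus before birth. The mutant embryos are described as Foxd1-null, 8 in all, with no further allele named. The 10 control embryos are described in words that could cover more than one genotype, so the wild-type label is taken from each library's source name. The dissection is described for E12.5 and E17.5 alone, and E12.0 stands in the sample labels. Each library was made from pooled RNA, and how many embryos went into a pool, their strain, sex and any treatment are not given in the sources used here.

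GABA is made from glutamate by 2 decarboxylases, GAD67 from Gad1 and GAD65 from Gad2, and it is loaded into synaptic vesicles by VGAT, the product of Slc32a1. Glutamate needs no special synthetic enzyme, and the neurons that release it are recognised by a vesicular glutamate transporter: VGLUT2 from Slc17a6, VGLUT1 from Slc17a7 or VGLUT3 from Slc17a8. In the mouse hypothalamus VGLUT2 marks most glutamatergic neurons, VGLUT1 is best known from cortex and hippocampus, and VGLUT3 is found in small populations that often release another transmitter.

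Values are FPKM, fragment counts that the authors scaled to transcript length and library total, so that levels of genes of different length can be set side by side. Foxd1 was at 2.77, 2.497, 0.396 and 0.230 FPKM in the mutant libraries and at 24.95, 30.3, 3.90 and 1.96 FPKM in the wild-type libraries, in stage order, so all libraries lay on the side of their label. All 12 hypothalamic markers were listed above 0 in all libraries, with a summed level of 143 and 290 FPKM in the mutant and 219 and 269 FPKM in the wild-type libraries at E12.0 and E12.5, and of 102.5 and 113 FPKM in mutant against 132 and 103 FPKM in wild-type libraries at E17.5. At E17.5, 10 of the 12 markers had lower values in mutants, with a median log2 difference of -0.22 against 0.00 over all genes. Of the 12, 5 had an unadjusted limma p under 0.05, all lower in mutants, against 5.7% of 13235 genes in either direction. None of the 12 passed the adjusted threshold. The sum was moved by Pomc, a peptide hormone precursor gene named after its values were seen, which was at 18.6 and 41.4 FPKM in mutant and 38.9 and 11.3 FPKM in wild-type libraries. Without Pomc, a choice made after its values were seen, the E17.5 sums were 83.9 and 71.6 FPKM in mutant and 92.9 and 91.9 FPKM in wild-type libraries. Of 13235 single genes, 22.2% likewise had both mutant libraries below both wild-type libraries at E17.5. The part of these marker differences in the transmitter gene values was not tested. Depth, estimated from the spacing of the lowest values, was 40.9 and 30.2 M fragments in mutant and 34.6 and 43.5 M in wild-type libraries at E17.5, and could not be fixed at E12. More genes were lower in the mutant library at E12.0 than at E12.5: 9.24% of 11952 genes were lower by at least 1.5-fold at E12.0 and 1.66% at E12.5. Genes higher by that fold were not counted. In bulk tissue fewer cells of a type and less RNA per cell cannot be told apart.

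The clearest pattern was one of stage, and both genotypes had it. Gad1 was the least abundant of the 3 GABA genes in all libraries of E12 and the most abundant of all 6 in those of E17.5, while Gad2 and Slc32a1 lay between 14.5 and 28.6 FPKM throughout. Slc17a6 was the leading glutamate transporter gene throughout. Loss of Foxd1 was not accompanied by a difference that passed the adjusted threshold in any of the 6 genes.

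The sequences before the annotated starts of the 4 abundant genes are given because Gad1 and Gad2, which make the same enzyme activity, had such different courses. Each is the 250 bases upstream of the first RefSeq start on build GRCm38.p6, plus strand, outside the transcript: Gad1 at chr2:70561879-70562128, Gad2 at chr2:22622077-22622326, Slc32a1 at chr2:158610508-158610757 and Slc17a6 at chr7:51621580-51621829. Capitals mark matches on either strand to 4 motifs, namely the forkhead core TAAACA, the homeodomain core TAATTA, the E-box CANNTG and the TATA box TATAAA; no marked matches overlap.
Gad1: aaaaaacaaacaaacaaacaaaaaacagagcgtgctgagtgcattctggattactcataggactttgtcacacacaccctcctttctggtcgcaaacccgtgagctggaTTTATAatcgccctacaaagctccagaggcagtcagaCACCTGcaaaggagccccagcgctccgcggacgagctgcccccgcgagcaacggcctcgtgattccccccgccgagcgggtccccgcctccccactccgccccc
Gad2: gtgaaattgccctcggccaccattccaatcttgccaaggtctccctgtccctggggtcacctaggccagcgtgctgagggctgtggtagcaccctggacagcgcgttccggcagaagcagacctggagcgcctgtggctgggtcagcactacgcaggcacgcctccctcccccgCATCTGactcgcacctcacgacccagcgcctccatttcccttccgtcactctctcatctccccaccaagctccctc
Slc32a1: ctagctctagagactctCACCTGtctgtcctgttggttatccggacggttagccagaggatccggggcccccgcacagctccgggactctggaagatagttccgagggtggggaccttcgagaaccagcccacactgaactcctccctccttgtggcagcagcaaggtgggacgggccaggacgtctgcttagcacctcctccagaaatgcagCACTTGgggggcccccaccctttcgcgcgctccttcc
Slc17a6: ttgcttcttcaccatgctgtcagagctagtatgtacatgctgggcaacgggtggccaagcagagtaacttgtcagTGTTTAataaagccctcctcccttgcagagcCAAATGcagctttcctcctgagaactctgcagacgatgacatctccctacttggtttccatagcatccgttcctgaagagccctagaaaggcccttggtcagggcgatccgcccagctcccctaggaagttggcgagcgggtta

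All 4 windows hold at least 1 E-box, as do 66.2% of 32851 RefSeq windows of the same length. The TATA box letters occur in the Gad1 window, 141 to 136 bases before the start, and in 12.4% of all windows. The forkhead core occurs in the Slc17a6 window, 175 to 170 bases before the start, and in 12% of all windows. The homeodomain core occurs in none of the 4 and in 4.84% of all windows. Slc17a6 has a second annotated start, not printed here. The window before that start holds the homeodomain core, 81 to 76 bases upstream, and no forkhead core. These are letter matches, with no measurement of binding.

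Gad1 encodes GAD67, the decarboxylase that makes most GABA of the cell body. It was at 8.09 FPKM in the mutant and 10.1 FPKM in the wild-type library at E12.0, and at 12.2 FPKM in mutant and 15.0 FPKM in wild-type at E12.5. At E17.5 it was at 73.3 and 65.8 FPKM in the mutant libraries and 67.4 and 71.05 FPKM in the wild-type libraries. The mutant library was the lower at both early stages, and at E17.5 the genotypes overlapped.

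The mean of Gad1 at E17.5 was 6.86 times that at E12 in mutants and 5.52 times in wild-type. On the log2(FPKM + 1) scale this was a difference of 2.69 in mutants, larger than that of 98.2% of 12519 genes, and of 2.40 in wild-type, larger than that of 97.3%. The deposited values are listed per gene at E12 and per transcript at E17.5, so levels across stages are described and not tested. Gad1 had a single row with the same RefSeq transcript in both. Embryonic splice forms of Gad1 are known in the mouse, and the values do not separate them.

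Gad2 encodes GAD65, the decarboxylase found at nerve endings. It was at 18.5 FPKM in the mutant and 28.6 FPKM in the wild-type library at E12.0, and at 23.5 FPKM in mutant and 23.6 FPKM in wild-type at E12.5. At E17.5 it was at 19.7 and 20.4 FPKM in mutant and 17.2 and 19.15 FPKM in wild-type libraries. The genotypes were thus apart at E12.0, almost equal at E12.5 and without overlap at E17.5, where both mutant libraries were the higher. Of the 13235 genes tested at E17.5, 20.9% had no overlap with the mutants higher, and Gad2 was the only member among them. A further 22.2% had no overlap with the mutants lower, and no member was among those.

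The E17.5 mean of Gad2 was 0.956 times that of E12 in mutants and 0.695 times in wild-type. The ratio of Gad1 to Gad2 within a library, which does not depend on how libraries were scaled, was 0.438 in the mutant and 0.353 in the wild-type library at E12.0, and 0.518 in mutant and 0.636 in wild-type at E12.5. At E17.5 it was 3.72 and 3.23 in mutant and 3.93 and 3.71 in wild-type libraries. Gad2 was the more abundant of the pair in all 4 libraries of E12 and Gad1 in all 4 of E17.5.

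Slc32a1 encodes VGAT, the transporter that fills vesicles with GABA or glycine. It was at 14.5 FPKM in the mutant and 16.0 FPKM in the wild-type library at E12.0, at 20.6 FPKM in mutant and 22.6 FPKM in wild-type at E12.5, and at 21.6 and 19.2 FPKM in mutant against 21.1 and 22.0 FPKM in wild-type libraries at E17.5. The mutant level was 0.908 times the wild-type level at E12.0 and 0.910 times at E12.5, and the genotypes overlapped at E17.5. The E17.5 mean was 1.16 times that of E12 in mutants and 1.12 times in wild-type. Gad1 and Slc32a1 thus had unlike courses, with 0.558 to 0.662 FPKM of Gad1 per FPKM of Slc32a1 over the E12 libraries and 3.19 to 3.42 over those of E17.5.

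Marker levels of other cell types also differed by stage, in both genotypes. The 8 astrocyte markers summed to between 26.05 and 45.2 FPKM at E12 and between 208.8 and 225.2 FPKM at E17.5, with Gfap at 0 in the E12.5 mutant library. The 8 progenitor markers, none at 0, summed to between 951.1 and 1171 FPKM at E12 and between 328.1 and 357.5 FPKM at E17.5, and the 12 pan-neuronal markers, none at 0, to between 1269 and 2116 FPKM and between 2740 and 2947 FPKM. The part of cell make-up in the courses of Gad1, Gad2 and Slc32a1 was not tested.

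**Figure D1:**
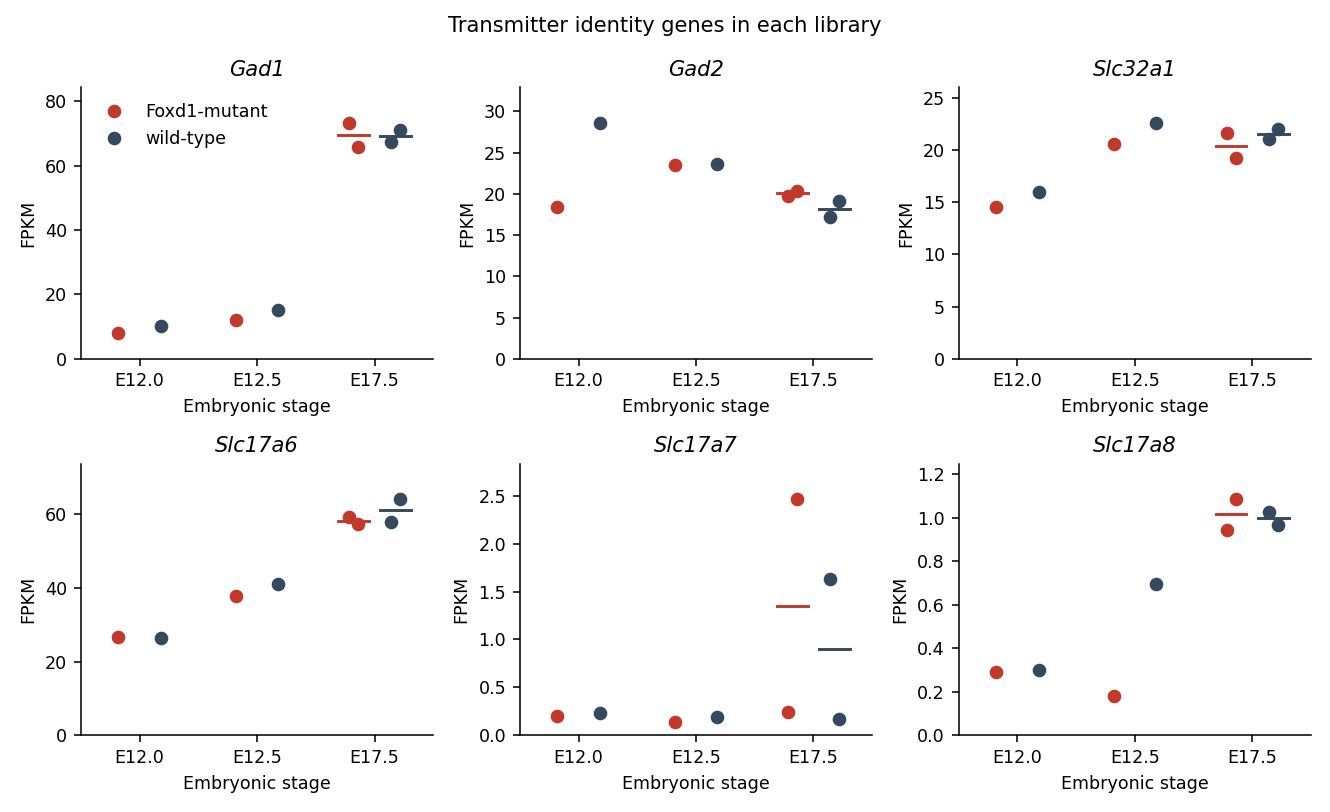
FPKM of the 6 genes (y axes, from 0, each gene on its own scale) at each embryonic stage (x axis), with 1 point per library, mutant in red and wild-type in dark blue, and a bar for the mean of the 2 libraries per genotype at E17.5. Gad1 sits between 8.09 and 15.0 FPKM at E12 and between 65.8 and 73.3 FPKM at E17.5, and the genotypes lie close together at most stages.

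Slc17a6 encodes VGLUT2. It was at 26.7 FPKM in the mutant and 26.5 FPKM in the wild-type library at E12.0, and at 37.8 FPKM in mutant and 41.0 FPKM in wild-type at E12.5. At E17.5 it was at 59.2 and 57.2 FPKM in mutant and 58.0 and 64.0 FPKM in wild-type libraries. The genotypes overlapped at E17.5, and the early differences were 1.01-fold at E12.0 and 0.921-fold at E12.5, mutant over wild-type. The E17.5 mean was 1.80 times that of E12 in mutants and 1.81 times in wild-type.

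Slc17a6 held 94.2% to 99.1% of the summed FPKM of the 3 glutamate transporter genes in every library. Set against the GABA side, the ratio of Slc17a6 to Slc32a1 was 1.84 in the mutant and 1.66 in the wild-type library at E12.0, 1.84 in mutant and 1.81 in wild-type at E12.5, and 2.74 and 2.97 in mutant against 2.75 and 2.91 in wild-type libraries at E17.5. The genotypes overlapped in this ratio at E17.5, and the E17.5 libraries were above the E12 libraries in both genotypes.

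**Figure D2:**
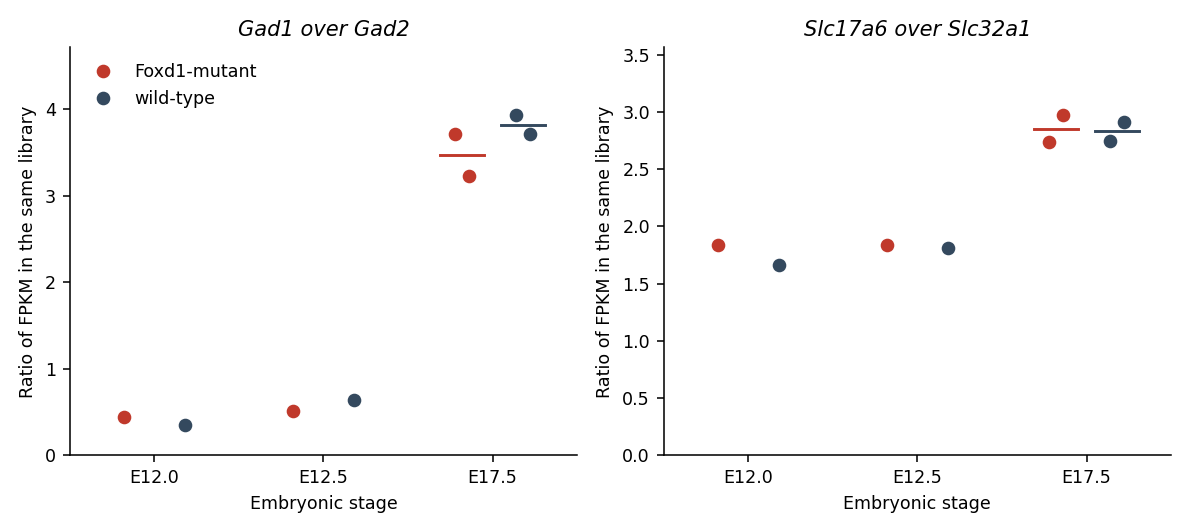
Ratio of FPKM of 2 genes in the same library (y axes, from 0) by embryonic stage (x axis), Gad1 over Gad2 on the left and Slc17a6 over Slc32a1 on the right, 1 point per library with a bar for the E17.5 means. Gad1 over Gad2 runs from 0.353 to 0.636 at E12 and from 3.23 to 3.93 at E17.5, while Slc17a6 over Slc32a1 runs from 1.66 to 1.84 and from 2.74 to 2.97.

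Slc17a7 encodes VGLUT1. It was low at E12, at 0.199 FPKM in the mutant and 0.234 FPKM in the wild-type library at E12.0 and at 0.144 FPKM in mutant and 0.190 FPKM in wild-type at E12.5. At E17.5 it was at 0.239 and 2.46 FPKM in mutant and 1.63 and 0.175 FPKM in wild-type libraries. One library of each genotype was high and the other low, so the spread within a genotype was far larger than the difference between them. By the depth estimate these values stand for about 27 and 204 fragments in mutant and 155 and 21 in wild-type libraries, so the split is larger than counting error.

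Slc17a7 is a gene of cortical neurons, and cortical markers did not follow it in every library. The 10 telencephalon and cortex markers, all above 0 at E17.5, summed to 50.3 and 108 FPKM in mutant and 47.7 and 46.3 FPKM in wild-type libraries. Neurod6, a regulator of cortical excitatory neurons, was at 8.59 and 33.7 FPKM in mutant and 8.48 and 11.1 FPKM in wild-type. Emx1, a dorsal telencephalic homeobox gene named here after its values were seen, was at 0.489 and 4.08 FPKM in mutant and 1.18 and 0.528 FPKM in wild-type. Pomc, given above, was also high in mutant replicate 2 and wild-type replicate 1. Mutant replicate 2 was thus high in Slc17a7 and in the marker sum, and wild-type replicate 1 was high in Slc17a7 at a marker sum close to the remaining libraries; the part of cortical tissue in Slc17a7 was not tested.

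**Figure D3:**
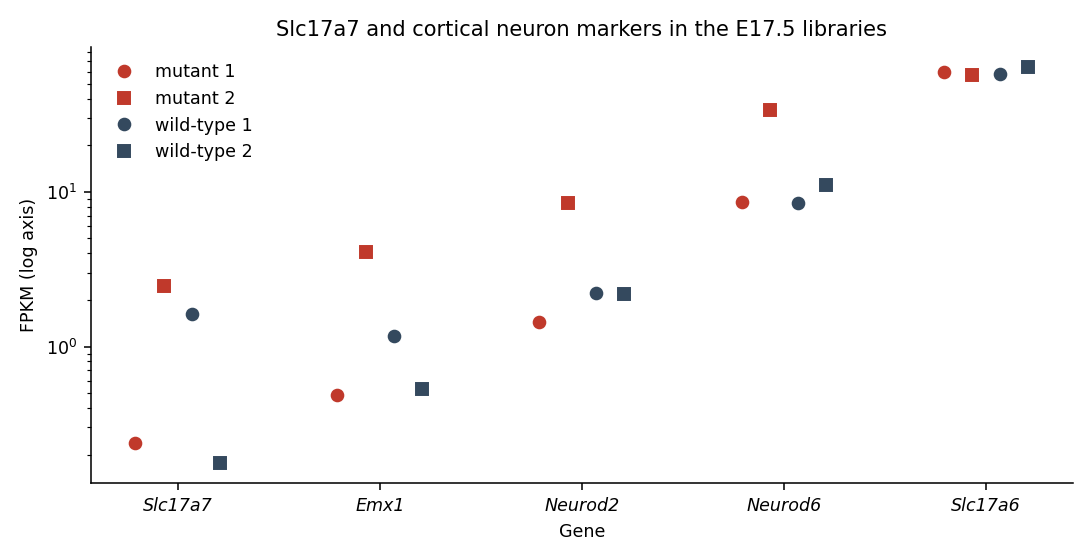
FPKM on a log axis of Slc17a7, 3 cortical neuron markers and Slc17a6 (x axis) in the 4 E17.5 libraries, mutant in red and wild-type in dark blue, replicate 1 as circles and replicate 2 as squares. Slc17a7 is high in mutant replicate 2 (2.46) and wild-type replicate 1 (1.63), whereas Neurod6 is high in mutant replicate 2 (33.7) and Slc17a6 lies between 57.2 and 64.0 in all 4.

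Slc17a8 encodes VGLUT3. It was at 0.291 FPKM in the mutant and 0.301 FPKM in the wild-type library at E12.0, and at 0.180 FPKM in mutant and 0.698 FPKM in wild-type at E12.5. At E17.5 it was at 0.946 and 1.08 FPKM in mutant and 1.03 and 0.966 FPKM in wild-type libraries, a narrow range in which the genotypes overlapped. The early mutant libraries were both the lower, at levels too low to be tested.

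The order of levels at E17.5 was the same in both genotypes for the abundant genes. Gad1 averaged 69.6 ± 5.33 FPKM in mutant and 69.2 ± 2.58 FPKM in wild-type libraries, and Slc17a6 58.2 ± 1.41 FPKM in mutant and 61.0 ± 4.27 FPKM in wild-type (mean ± SD, n = 2 each). Slc32a1 averaged 20.4 ± 1.69 FPKM in mutant and 21.6 ± 0.629 FPKM in wild-type, and Gad2 20.1 ± 0.474 FPKM in mutant and 18.2 ± 1.41 FPKM in wild-type. Slc32a1 and Gad2 overlapped in the mutant libraries and did not in the wild-type libraries. Slc17a7, at 1.35 ± 1.57 FPKM in mutant and 0.903 ± 1.03 FPKM in wild-type, and Slc17a8, at 1.02 ± 0.0985 FPKM in mutant and 0.997 ± 0.0436 FPKM in wild-type, could not be put in order beyond that spread. At E12 Slc17a6 was the highest of the 6 in 3 of 4 libraries, and Gad2 in the wild-type library of E12.0.

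Mutant and wild-type levels were tested at E17.5 with limma on log2(FPKM + 1), over all genes averaging 1 FPKM or more and with Benjamini-Hochberg adjustment. At an adjusted p under 0.05, 1 gene of 13235 passed (0.00756%), and none of the 6 members, all of which were tested; at an unadjusted p under 0.05 there were 5.7% of all genes and again no member. Without mutant replicate 1, wild-type replicate 1 or mutant replicate 2 the count over all genes was 44, 4 or 10, with no tested member among them; Slc17a7 and Slc17a8 averaged under 1 FPKM without wild-type replicate 1 or mutant replicate 2 and were not tested there. The largest difference among the 4 abundant members was that of Gad2, at 0.14 with a standard error of 0.07 (95% confidence interval -0.03 to 0.31, limma adjusted p = 0.689). It was 0.06 without wild-type replicate 1 and 0.21 without wild-type replicate 2. Gad1 differed by 0.01 (interval -0.17 to 0.18), Slc32a1 by -0.08 (-0.25 to 0.10) and Slc17a6 by -0.06 (-0.22 to 0.09), with limma adjusted p = 0.982, 0.730 and 0.737. These tests do not show the genotypes to be alike; they bound the difference of the 4 genes at E17.5 by those intervals. Slc17a8 differed by 0.01 (interval -0.24 to 0.26, limma adjusted p = 0.971), and for Slc17a7 the interval ran from -1.19 to 1.66 around a difference of 0.24 (limma adjusted p = 0.892). That difference was -0.35 without wild-type replicate 2 and 0.98 without mutant replicate 1, the only 2 of the 4 leave-one-out fits in which Slc17a7 was tested. The labels do not say whether the pools came from separate litters, and the p-values therefore speak of library-to-library spread, which may be technical. Part of that spread is borrowed by limma from the other genes tested.

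At E12.0 and E12.5 the 4 abundant members were tested in 1 fit that allows each stage its own level, where the spread is the disagreement between the stages. Of 11952 genes 4 passed (0.0335%), none of them a member, and 1.41% had an unadjusted p under 0.05, again with no member. Gad1 was lower in mutants by -0.28 (standard error 0.13, interval -0.61 to 0.05, limma adjusted p = 0.976), Gad2 by -0.31 (interval -0.77 to 0.16), Slc32a1 by -0.13 (interval -0.44 to 0.18) and Slc17a6 by -0.05 (interval -0.37 to 0.26), the adjusted p of Gad2 and Slc32a1 being 0.976 and that of Slc17a6 0.978. Gad1, Gad2 and Slc32a1 were each lower in the mutant at both early stages, as were 21.8% of all genes tested, while 25.9% of genes and no tested member were higher at both. For Gad2 the mutant level was 0.644 times the wild-type level at E12.0 and 0.997 times at E12.5, and it was the only tested member past 1.5-fold at either stage. Most marker lists had lower values in mutants at E12, against a median of 0.01 over all genes: 11 of 12 pan-neuronal markers (median -0.15), 7 of 7 tested thalamus and prethalamus markers (-0.54), 4 of 4 tested astrocyte markers (-0.21) and 8 of 9 tested telencephalon and cortex markers (-0.13). The hypothalamus markers were more mixed, with 7 lower and 5 higher (-0.13). The 2 largest pan-neuronal differences, in Syn1 and Dcx, came mainly from E12.0. Syn1 was at 2.385 FPKM in mutant and 11.1 FPKM in wild-type at E12.0, and at 3.95 and 4.47 FPKM at E12.5. Dcx was at 39.85 FPKM in mutant and 82.9 FPKM in wild-type at E12.0, and at 61.0 and 62.7 FPKM at E12.5. Of the progenitor markers 7 of 8 had higher values (0.06), and no marker of these lists passed the test. The summed level of the pan-neuronal markers was 1269 and 1941 FPKM in mutant and 1285 and 2116 FPKM in wild-type libraries at E12.0 and E12.5, with no marker at 0. The summed level of the thalamus and prethalamus markers, none at 0, was 58.7 and 49.9 FPKM in mutant and 70.7 and 84.4 FPKM in wild-type libraries. The part of these cell types in the GABA gene values was not tested.

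Over all stages, with 8 libraries, no gene of 12519 passed the adjusted threshold in limma (0%), and 695 had an unadjusted p under 0.05 (5.55%), none of them a member. Slc32a1 was at -0.10 (interval -0.23 to 0.02), Gad1 at -0.14 (-0.32 to 0.04), Gad2 at -0.08 (-0.39 to 0.22) and Slc17a6 at -0.06 (-0.18 to 0.06), with limma adjusted p between 0.749 and 0.857. The genotype difference of E17.5 minus that of E12 was tested in the same libraries, where 4 genes passed (0.032%) and no member did. Gad1 had 0.29 (interval 0.02 to 0.56, unadjusted p = 0.0380, limma adjusted p = 0.749), and at unadjusted p under 0.05 there were 3.95% of all genes. Gad2 had 0.44 (interval -0.05 to 0.94), Slc32a1 0.06 and Slc17a6 -0.01, with limma adjusted p = 0.749, 0.881 and 0.971.

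**Figure D4:**
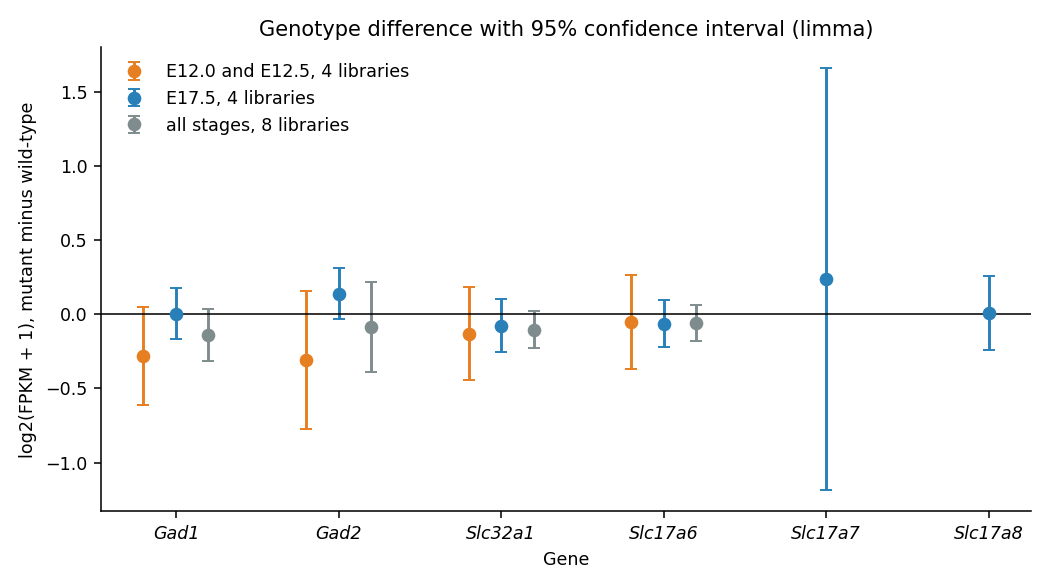
Difference in log2(FPKM + 1), mutant minus wild-type (y axis), for each gene (x axis) at E12, at E17.5 and over all stages, as points with 95% confidence intervals from limma. Every interval drawn includes 0, and Slc17a7 at E17.5 has the widest, from -1.19 to 1.66; Slc17a7 and Slc17a8 were tested at E17.5 alone.

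The other genes that make, move and break down these transmitters gave no call by genotype either. In a list of 11 genes of GABA synthesis, loading, uptake and breakdown, which holds the 3 GABA members, 10 were tested at E17.5 and 7 at E12, and none passed. At E17.5 4 had positive and 6 negative values, with a median of -0.07 against 0.00 over all genes, and at E12 1 was positive and 6 negative, with a median of -0.12 against 0.01. The largest differences at E17.5 were in Slc6a13, the GABA transporter GAT2 found in meninges (0.18, with 18.1 and 11.03 FPKM in mutant and 17.02 and 8.97 FPKM in wild-type libraries), and in Slc6a11, the astrocyte transporter GAT3 (-0.17). Both genes were under 1 FPKM in all E12 libraries, and Slc6a11 was at 32.6 and 26.0 FPKM in mutant and 31.3 and 34.6 FPKM in wild-type libraries at E17.5.

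In the list of 16 genes of glutamate loading, synthesis and uptake, with the 3 transporter members, 15 were tested at E17.5, 6 positive and 9 negative with a median of -0.02. At E12 13 were tested, 4 positive and 9 negative with a median of -0.05, and none passed at either stage. Besides Slc17a7 the largest value at E17.5 was -0.14 in Slc1a6, the glutamate transporter EAAT4, which was at 11.6 and 9.84 FPKM in mutant and 11.9 and 11.8 FPKM in wild-type libraries. At E12 the largest were -0.33 in Slc38a3, a glutamine transporter, and -0.31 in Slc1a2, the glial glutamate transporter GLT-1.

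Chloride transporters set whether GABA excites or inhibits a cell. Of 4 such genes none passed at either stage. Slc12a5, the exporter KCC2 of mature neurons, was at 5.25 FPKM in mutant and 5.54 FPKM in wild-type at E12.0, 11.4 FPKM in mutant and 13.5 FPKM in wild-type at E12.5, and 55.3 and 43.6 FPKM in mutant against 54.8 and 56.8 FPKM in wild-type libraries at E17.5. Slc12a2, the importer NKCC1, ran from 11.5 to 15.1 FPKM over all libraries. Slc12a5, like Gad1, was thus several-fold higher at E17.5 than at E12 in both genotypes, and Slc12a2, like Gad2, was not.

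No regulator of the 2 identities passed the adjusted threshold either. Of 24 GABAergic regulators 17 were tested at E17.5, 9 positive and 8 negative, with a median of 0.02. At an unadjusted limma p under 0.05, 5 of them were higher and 1 lower in mutants, against 5.7% of all genes in either direction. Lhx6 (0.72) and Lhx8 (0.50), LIM homeobox genes of ventral forebrain neurons, had the largest values, with limma adjusted p = 0.689 each. At E12 18 of 20 tested were negative, with a median of -0.27 against 0.01 over all genes, led by Helt (-0.73), a GABAergic selector of the midbrain and diencephalon in the mouse, while Lhx8 was at 0.68. There 5 had an unadjusted limma p under 0.05, all lower in mutants, against 1.41% of all genes in either direction. Of 24 glutamatergic regulators 9 were positive and 10 negative at E17.5, with a median of -0.02, and at E12 19 of 23 were negative, with a median of -0.10. At an unadjusted limma p under 0.05, 2 glutamatergic regulators were higher and 6 lower in mutants at E17.5, and 1 was lower at E12. Their largest values at E17.5 were 0.89 in Eomes and -0.77 in Otp, and at E12 -0.76 in Tbr1 and -0.60 in Lhx9. The telencephalon and cortex markers, which at E17.5 were all 10 positive (median 0.61) and whose sum was high in mutant replicate 2 alone, share Tbr1, Eomes, Neurod2 and Neurod6 with this list.

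**Figure D5:**
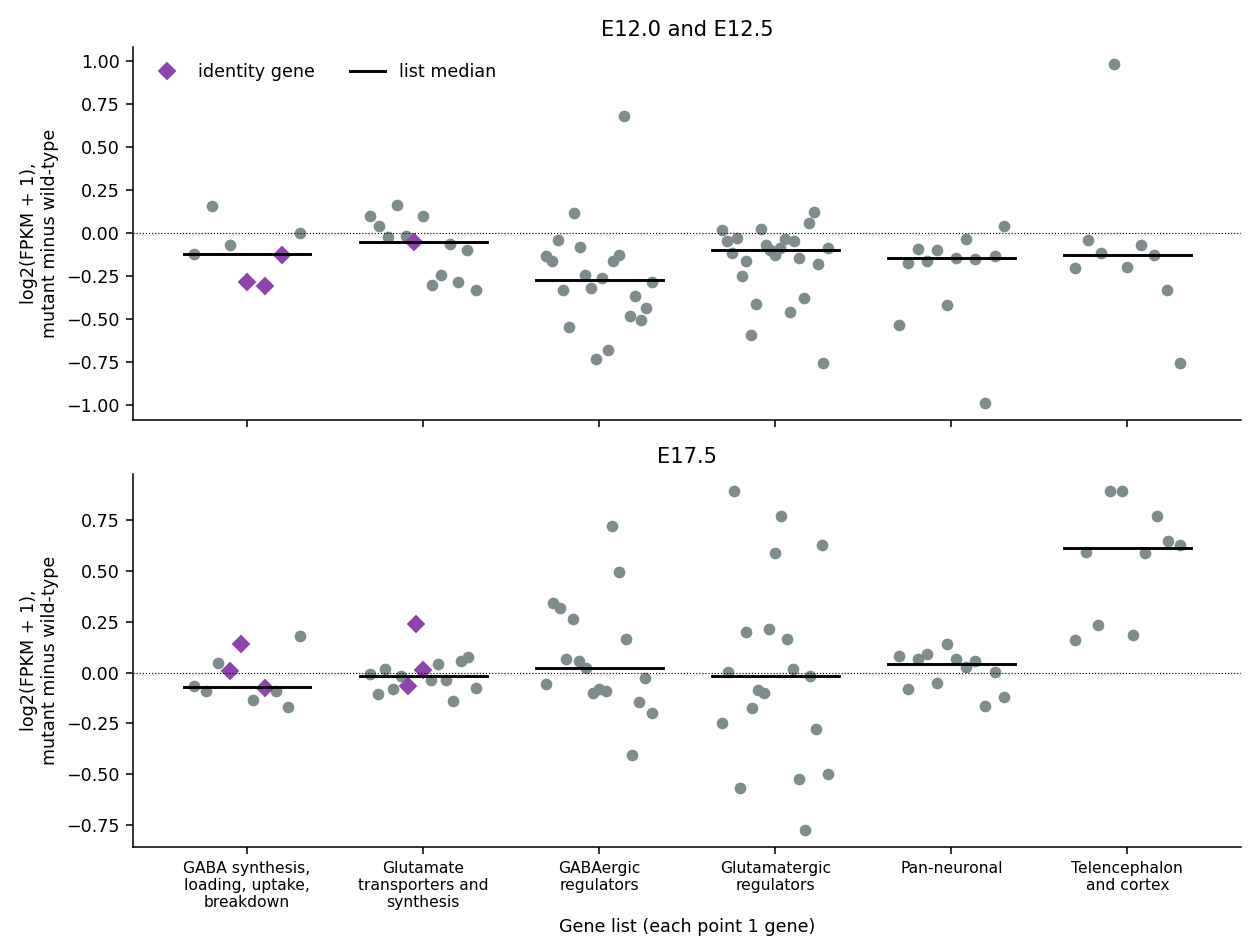
Difference in log2(FPKM + 1), mutant minus wild-type (y axes), of each tested gene in 6 gene lists (x axis) at E12 (top) and E17.5 (bottom), with the transmitter identity genes as purple diamonds and a black line for the list median. At E12 the GABAergic regulators have a median of -0.27 and the pan-neuronal genes -0.15, and at E17.5 the telencephalon and cortex genes have a median of 0.61 while the GABA genes are at -0.07.

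Genes of other transmitters gave a background for these values. Of 13 listed, 7 were tested at E17.5, 1 positive and 6 negative, with a median of -0.17, and none passed. Slc6a3, the dopamine transporter gene, had -0.91 (limma adjusted p = 0.689), and Hdc, the enzyme that makes histamine, had -0.19. Slc6a5, the neuronal glycine transporter gene, was listed at 0.0302 FPKM or less in all libraries, and Chat, the enzyme that makes acetylcholine, at 0.184 FPKM or less. Both were named after their values were seen, and both lay far below the GABA genes and Slc17a6 in these libraries. Other genes of the list were not near 0, among them Ddc and Th, likewise named after their values were seen. Ddc ran from 4.235 to 13.4 FPKM at E12 and from 10.4 to 15.2 FPKM at E17.5. Th ran from 10.9 to 12.4 FPKM at E12 and from 5.32 to 7.27 FPKM at E17.5. In the E12.0 mutant library Th, at 10.9 FPKM, was above Gad1, at 8.09 FPKM.

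Once the mean of each stage was taken off, the library patterns of the abundant members were described by Pearson's r over the 8 libraries, among 8926 genes. The genes most like Gad1 were Fbxl2 (0.983), Akap12 (0.983) and Efr3b (0.982), those most like Gad2 were Vps13d (0.996), Gigyf2 (0.996) and Nedd4l (0.995), those most like Slc32a1 were Zmym3 (0.998), Spock2 (0.995) and Nudt10 (0.994), and those most like Slc17a6 were Gpatch2 (0.979), Klhl32 (0.975) and Fchsd1 (0.971). With so few libraries high values are common: 718 genes reached 0.9 with Gad2, 174 with Slc32a1, 120 with Gad1 and 32 with Slc17a6. Among the members themselves r was 0.86 for Gad1 and Slc32a1, 0.64 for Gad1 and Gad2, 0.34 for Gad2 and Slc32a1, and 0.68 for Slc32a1 and Slc17a6. The libraries share their stage, depth and tissue, so these values describe them and are no test.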

How the data were processed

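Mouse build mm9, TopHat and Cufflinks are named in the submitters' processing notes; versions are not given in the sources used here. Libraries were paired-end with 100 cycles, per the labels' protocols. The deposited FPKM values were used as given. The E12 files held 23737 rows, 8 of them without a gene name and left out, and the E17.5 files held 32952 transcript rows. Rows sharing a symbol were summed, and each of the 6 members had 1 row. Genes averaging 1 FPKM or more across the libraries compared entered limma 3.58.1 (R 4.3.3) on log2(FPKM + 1), with a variance trend, two-sided, adjusted over all genes tested. Differences on this scale understate the change of low genes. Stage was a block at E12 and over all stages. Genes were named by a rule: all members, Foxd1, the 2 largest differences per list and comparison, and the 3 genes most like each member; exceptions are marked where they stand.

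The members, lists and comparisons were chosen with earlier results of these data known. The fits were tested on simulated data. Depth was estimated from transcripts over 2500 nt, less a fragment length of 170 nt. Low values fell within 0.1 of a whole fragment for 71.6% to 74.4% of rows in E17.5 libraries, but for only 31.1% to 41.1% in E12 libraries. Estimates cover counting error only. Transcript lengths came from GENCODE M21, a later build. Promoter sequences came from RefSeq on GRCm38.p6, and all 6 members matched. Python 3.11.15, numpy 2.4.6, pandas 2.3.3 and matplotlib 3.10.9 were used. Alternatives changed the pseudocount, filter, scaling, trend, row choice, blocks and libraries.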

Additional observations from a re-analysis of the deposited data

How the results depend on the processing

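No member passed the adjusted threshold under any of the alternatives run, the lowest adjusted p being 0.145, for Slc32a1 at E17.5 without mutant replicate 1. Of 238 member values 12 had the opposite sign. At E17.5 leaving out 1 library gave Gad1 -0.0719 to 0.0823, Gad2 0.06 to 0.21, Slc32a1 -0.16 to 0.005015, and Slc17a6 -0.13 to 0.00579. Slc17a8 had -0.0103 and 0.0619 and Slc17a7 -0.35 and 0.98, without wild-type replicate 2 and without mutant replicate 1; the other 2 fits left both under the filter. At E12.0 alone, with no test, Slc17a6 was at 0.01. Over all stages Gad2 was at 0.0907 without the E12.0 libraries. For the genotype difference of E17.5 minus E12, Slc17a6 was at 0.00918 with quantile normalization and at -0.0831 to 0.0575, and Slc32a1 at -0.0248 to 0.14, with 1 E17.5 library left out. The cause was not tested.

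Counts over all genes moved more. At E17.5 they were 0 with no filter and 0 with a mean of at least 5 FPKM, and 1 to 44 with 1 library left out. The replicate block gave 16; the deviations of same-numbered libraries from their genotype means had r = 0.03, and the labels do not pair them. Over all stages the count was 0 in every alternative run, the replicate block included. At E12 they were 1 with pseudocount 5, no filter, quantile normalization, upper-quartile scaling or no trend, and 78 with no stage block. For the difference between stages they were 1 with pseudocount 0.1, pseudocount 5 or quantile normalization, 0 with no filter, a mean of at least 5 FPKM or upper-quartile scaling, 2 with robust spread or with 1 row per symbol, and 0 to 1 with 1 library left out, an alternative added after the data were seen. With small RNA genes left out and libraries scaled alike, E17.5 minus E12 was 2.37 for Gad1 (2.54 as deposited), -0.45 for Gad2 (-0.27), 0.02 for Slc32a1 (0.20) and 0.68 for Slc17a6 (0.86), while the ratio of Gad1 to Gad2 does not depend on scaling. A filter at 5 FPKM leaves Slc17a7 and Slc17a8 untested. At E12 both genes were under 1 FPKM in all libraries and fell under the main filter. Since depth could not be fixed at E12, its part in their values there is not known.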
